A study of Mus musculus with 10 samples.

Results

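The subject here is the response to luminal cell ablation that differed between the 2 epithelial lineages of the mouse mammary gland. For each gene it is a difference of differences on the log2 scale: the gap between Tomato-positive and control luminal cells, minus the gap between Tomato-positive and control basal cells. The rule selects samples and not genes, so every gene with enough counts has a value. It uses 8 of the 10 libraries of the series: 2 each of basal cells (BC), luminal cells (LC), Tomato basal cells (TBC) and Tomato luminal cells (TLC), while the 2 libraries of Tomato hybrid cells were left out. All were sorted by FACS from mammary gland. TBC and TLC carry luminal cell ablation as their treatment, BC and LC carry no treatment, and the second library of BC and of LC is titled BC-WT and LC-WT. The labels give no mouse line, Cre driver, age, sex, dose, time or number of animals. From knowledge of the study, Tomato marks cells that descend from basal cells labelled under a keratin promoter, but the labels do not state this. Tomato marking and ablation came together in both arms, so their effects cannot be told apart. TLC and TBC are selected by the marker within a gate, and LC and BC are not.

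The mammary epithelium has an outer layer of basal, myoepithelial cells, which contract during lactation and express keratins 5 and 14 with the transcription factor p63, and an inner luminal layer with keratins 8 and 18. Luminal cells comprise hormone-sensing cells with oestrogen and progesterone receptors and progenitors of the milk-secreting alveoli. In the adult each lineage is mostly maintained by its own progenitors, and basal cells can give rise to luminal cells after transplantation or loss of luminal cells. A positive value below means that a gene stood higher in TLC than in LC by more than it stood higher in TBC than in BC. The same number is also the change in the gap between luminal and basal cells, from the control pair to the Tomato pair.

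The 250 bases before the annotated start (RefSeq, GRCm38.p6) are shown for 3 genes on which the results turn: Krt5, a basal keratin that was among the genes with a higher value, and Areg and Kif5c, an epidermal growth factor receptor ligand and a kinesin heavy chain that were among those with a lower value. Capitals mark matches on either strand to TATAAA, the AP-1 motif TGANTCA, the Sp1 motif GGGCGG, the cAMP response motif TGACGTCA and a p53-family decamer. The stretches are chr15:101712906-101713155 (minus strand) for Krt5, chr5:91139349-91139598 (plus strand) for Areg and chr2:49619036-49619285 (plus strand) for Kif5c.
Krt5: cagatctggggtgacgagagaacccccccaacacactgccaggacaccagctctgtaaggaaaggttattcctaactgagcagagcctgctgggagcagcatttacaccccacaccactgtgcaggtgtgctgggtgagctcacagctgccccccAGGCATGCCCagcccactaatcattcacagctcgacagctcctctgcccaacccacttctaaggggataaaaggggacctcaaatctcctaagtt
Areg: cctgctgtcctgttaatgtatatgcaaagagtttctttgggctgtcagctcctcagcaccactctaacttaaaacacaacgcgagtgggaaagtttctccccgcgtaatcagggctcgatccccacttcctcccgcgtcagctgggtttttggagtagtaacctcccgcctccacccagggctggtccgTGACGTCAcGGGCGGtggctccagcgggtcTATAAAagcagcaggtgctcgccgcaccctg
Kif5c: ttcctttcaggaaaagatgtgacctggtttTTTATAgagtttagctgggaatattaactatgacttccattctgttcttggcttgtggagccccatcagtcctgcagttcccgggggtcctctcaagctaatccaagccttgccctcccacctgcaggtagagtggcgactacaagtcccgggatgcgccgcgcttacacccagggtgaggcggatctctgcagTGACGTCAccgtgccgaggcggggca
The p53-family decamer lies at -95 to -86 from the start of Krt5 and occurs in 1.68% of 27025 such windows. TGACGTCA lies at -61 to -54 in Areg and at -26 to -19 in Kif5c, and occurs in 1.62% of the windows. Areg also holds GGGCGG at -52 to -47 and TATAAA at -31 to -26, and Kif5c holds TATAAA on the other strand at -220 to -215. Over all windows TATAAA occurs in 13.0%, GGGCGG in 32.9% and TGANTCA in 6.87%. Among the genes called below, 51 of 88 higher and 22 of 35 lower ones had an entry. The decamer was in 3 of the 51 (Sgcb, Itga9, Krt5) and 0 of the 22, TGACGTCA in 1 (Ptpru) and 2 (Kif5c, Areg), and GGGCGG in 30 and 9. The decamer and TGACGTCA were added to the search with these sequences in view, and a match of letters is no evidence of binding.

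The 8 libraries held 5381351 to 13685674 counts on genes, and 3 counts, taken as the floor, correspond to 0.214 to 0.588 CPM (reads of a gene scaled to a common library size), a limit that covers counting error only. In each of the 4 populations the libraries differed by more than counting error (chi-square divided by its degrees of freedom 19.6 to 34.6). Separate animals are not stated, so p-values measure the spread between these samples, which may be technical. The mean log2 CPM of 20 pan-luminal genes was 8.26 to 8.41 in LC, 7.83 to 7.86 in TLC and 5.78 to 6.29 in the basal libraries, as the labels imply. That of 14 basal identity genes was 7.65 to 8.15 in BC and TBC and 2.23 to 3.24 in LC, but 5.21 to 5.89 in TLC, between the lineages. In bulk RNA, a change in the share of cells of one kind and a change in RNA per cell cannot be told apart.

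Of 19269 genes tested, 88 had a higher and 35 a lower difference of differences (edgeR's quasi-likelihood test, Benjamini-Hochberg adjusted p under 0.05), which is 0.457% and 0.182% of the genes. The higher genes included basal keratins, desmosomal cadherins, Lgr5 and Pthlh, and the lower ones included hormone-sensing luminal genes and genes of membrane proteins such as Muc16 and Piezo2. The luminal arm (TLC against LC) alone called 832 genes higher (4.32%) and 680 lower (3.53%). The basal arm (TBC against BC) called 0 higher (0%) and 0 lower (0%), with 1628 genes at an unadjusted p under 0.05, a smallest adjusted p of 0.304, 0 calls by limma-voom and 201 by DESeq2. All 88 higher genes were called higher and all 35 lower genes called lower in the luminal arm. Since that arm is part of the difference, this is not separate evidence. The median difference of the 88 genes was 3.20 in the luminal arm and -0.07 in the basal arm, where single genes ran from -1.23 to 2.03. Those of the 35 were -2.20 and 0.11, with a range of -1.46 to 0.89 in the basal arm. An unadjusted p under 0.05 in the basal arm was found for 18 of the 88 and 8 of the 35, beside 1628 of all 19269 genes. The basal arm is part of the difference as well, so the contrast of these counts is in part built in.

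For all 123 called genes the sign held for the least favourable combination of the libraries and within each of the 2 sets of sheet numbers in the titles. The genes were called from these same libraries, so the agreement of sign largely follows from the call. Without TLC replicate 1, however, 4 genes were called higher and 0 lower, and without TBC replicate 2 there were 9 and 7. None of the 40 called genes named below by rule passed without TLC replicate 1 (adjusted p 0.052 to 0.18), and 7 passed without TBC replicate 2. With upper-quartile scaling the calls were 103 and 23, so the higher share was 81.7% in place of 71.5%, and the median over all genes moved from 0.05 to 0.17.

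**Figure D1:**
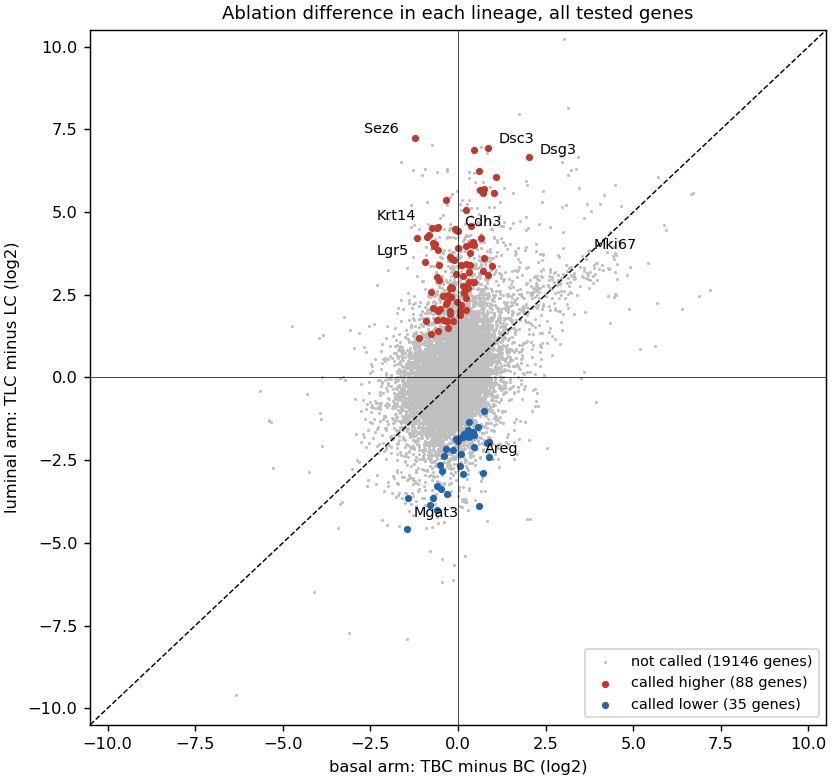
Log2 difference between TBC and BC (x axis) and between TLC and LC (y axis) for each of 19269 tested genes, with the line of equal differences dashed. The 88 genes called higher lie above that line and the 35 called lower lie below it, most of them near 0 on the x axis, while Mki67, not called, lies near the line far from 0.

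Basal keratins and identity genes had the highest median of the 27 lists of lineage and pathway genes examined. The lists and their members were chosen with earlier results of these data known. The rank and the calls per list, here and below, are therefore not separate evidence. Of 14 members, all tested, 6 were called higher (Krt14, Krt5, Krt17, Trp63, Cdh3 and Bcl11b) and 0 lower, and 13 had a positive value. Their median was 2.47, beside 0.05 over all genes tested. The median gap of the list between luminal and basal cells was -5.77 in the control pair and -2.64 in the Tomato pair. In all, 11 members were called higher in TLC than in LC and 0 differed between TBC and BC.

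Krt14 (chr11:100203162-100207548), the type I keratin of basal cells, measured 2345 and 2206 CPM in BC, 1722 and 1324 in TBC, 34.7 and 10.6 in LC and 674 and 379 in TLC. The LC libraries were the lowest, both TLC libraries lay between them and the basal libraries, and none of the 4 populations overlapped. The difference of differences was 5.13 ± 0.73 (SE, n = 2 per population; adjusted p = 0.020), made of 4.55 in the luminal arm and -0.58 in the basal arm. Krt5, its partner, measured 768 and 1395 in BC, 1174 and 986 in TBC, 11.5 and 5.72 in LC and 177 and 81.1 in TLC. BC and TBC overlapped, and TLC again lay between LC and the basal cells, for a value of 3.93 ± 0.66 (adjusted p = 0.040).

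Krt17, which basal and stressed keratinocytes express, had a value of 3.65 ± 0.57 (adjusted p = 0.022), from 30.8 and 14.4 CPM in LC to 220 and 152 in TLC against 1481 and 989 in BC and 957 and 668 in TBC. Trp63, the gene of p63, measured 9.52 and 6.43 in LC and 66.1 and 38.5 in TLC, against 493 and 537 in BC and 612 and 645 in TBC. Its value was 2.43 ± 0.43 (adjusted p = 0.042). Cdh3, the gene of P-cadherin, the adhesion protein of basal cells, went from 5.19 and 1.79 in LC to 96.9 and 53.9 in TLC, with 368 and 436 in BC and 399 and 361 in TBC. Its value of 4.56 ± 0.61 (adjusted p = 0.016) came almost wholly from the luminal arm (4.48, against -0.08). Bcl11b, a zinc-finger transcription factor of basal cells and T cells, had 1.08 and 0.14 CPM in LC, 31.0 and 22.2 in TLC, 30.4 and 65.2 in BC and 82.6 and 74.0 in TBC (4.88 ± 0.81, adjusted p = 0.042). Of the 8 members not called, Nrg1, Snai2, Id4, Jag2 and Krt15 were called higher in the luminal arm alone, and Lgr6 had the list's one negative value (-0.88). Each of these 6 calls was lost without TLC replicate 1, and that of Krt14 also without BC replicate 1, TBC replicate 1, BC replicate 2 or TBC replicate 2 (adjusted p up to 0.105). The value of Krt14 within the sets of sheet numbers was 4.72 and 5.87, and that of Krt5 3.31 and 4.28.

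**Figure D2:**
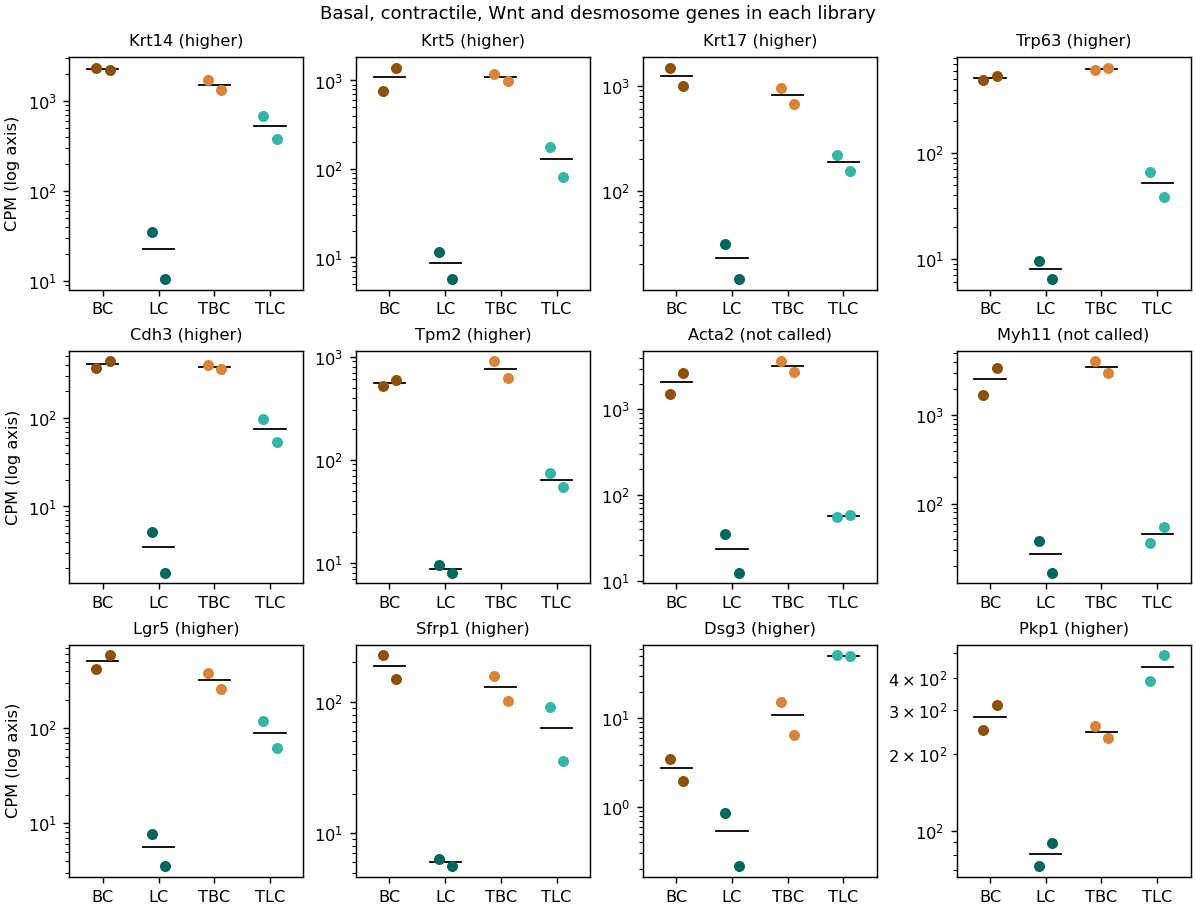
CPM on a log axis in each of the 8 libraries for 12 basal, contractile, Wnt and desmosome genes, with a horizontal line at the mean of each population. Krt14, Krt5, Krt17, Trp63, Cdh3, Tpm2, Lgr5 and Sfrp1 stand between LC and the basal libraries in TLC, Acta2 and Myh11 stay near LC, and Dsg3 and Pkp1 are highest in TLC.

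Smooth-muscle contractile genes are the other hallmark of basal cells. Of 18 tested 1 was called, Tpm2, the gene of beta-tropomyosin, and the list median was 0.52. Tpm2 measured 518 and 599 CPM in BC, 898 and 623 in TBC, 9.41 and 8.01 in LC and 74.2 and 53.7 in TLC, a value of 2.43 ± 0.40 (adjusted p = 0.029). Acta2, the gene of smooth muscle actin, measured 1510 and 2671 in BC, 3638 and 2727 in TBC, 34.8 and 12.4 in LC and 55.4 and 57.9 in TLC. TLC was above both LC libraries but by little on the scale of the gap, and the value was 0.67 ± 0.65 (adjusted p = 0.82). For the oxytocin receptor Oxtr, through which myoepithelial cells are made to contract, LC had 17.1 and 31.6, TLC 44.4 and 37.0, BC 1127 and 1827 and TBC 2413 and 1296 (0.41 ± 0.57, adjusted p = 0.89). The median gap of the list was -5.32 in the control pair and -4.20 in the Tomato pair. Mylk, Cald1 and Flna were called higher in the luminal arm along with Tpm2, but not in the difference of differences.

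Levels in luminal cells can also be given as a share of those in the basal cells of the same condition. The mean CPM of the 14 identity genes in LC was 0.79% to 29.3% of that in BC, with a median of 1.84%, and in TLC it was 5.19% to 59.1% of that in TBC, with a median of 16.4%. For the 18 contractile genes it was 0.69% to 72.3% in LC, with a median of 2.74%, and 0.95% to 52.0% in TLC, with a median of 5.08%, so the ranges of both lists overlapped widely. Among the identity genes TLC stood at 5.19% of TBC for Jag2, 7.61% for Snai2, 8.32% for Trp63, 11.96% for Krt5, 34.6% for Krt14 and 59.1% for Procr. Among the contractile genes it stood at 0.95% for Cnn1, 1.30% for Myh11, 1.78% for Acta2, 33.9% for Cald1, 45.02% for Tpm1 and 52.0% for Actn1. Tpm1 and Actn1 were already at 33.5% and 36.7% in LC. Procr, at 29.3% in LC, measured 3.995 CPM in LC and 3.83 in TLC, beside 13.6 in BC and 6.47 in TBC. Its share thus rose with a lower basal mean and not with a higher luminal one. The percentages differed between genes in LC as well as in TLC. How much of the basal RNA in TLC came from basal cells within the luminal gate was not tested.

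**Figure D3:**
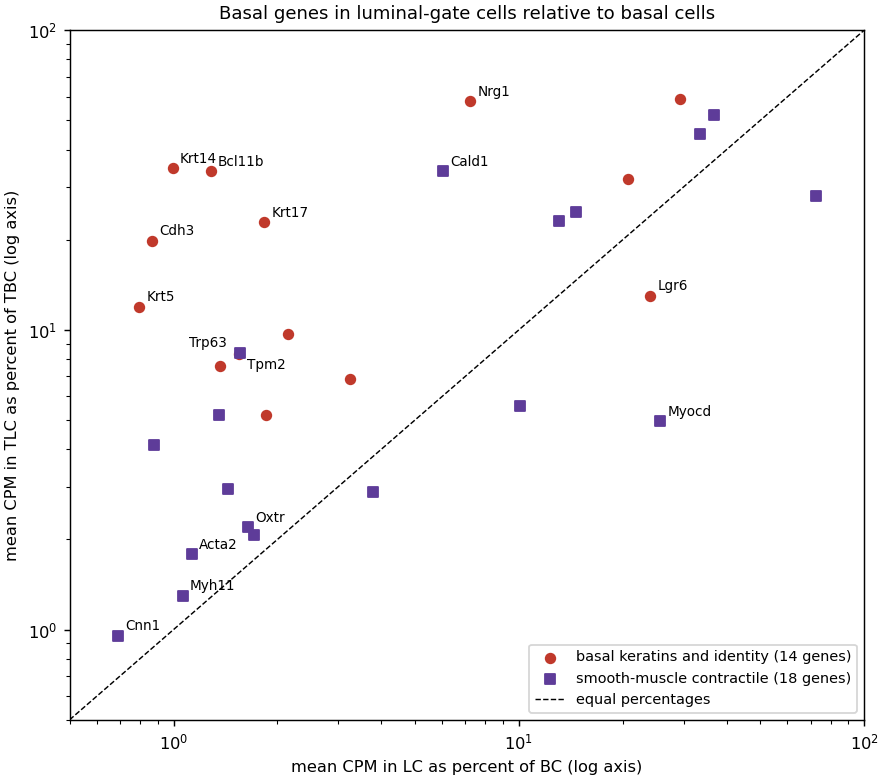
Mean CPM in TLC as a percent of TBC (y axis) against mean CPM in LC as a percent of BC (x axis), both on log axes, for 14 basal identity genes and 18 contractile genes, with equal percentages dashed. Krt14 rises from 0.996% to 34.6%. Acta2, at 1.13% and 1.78%, Cnn1, at 0.69% and 0.95%, Tpm1, at 33.5% and 45.02%, and Actn1, at 36.7% and 52.0%, lie near the line. Other contractile genes lie above it, such as Cald1 at 6.04% and 33.9%, or below it, such as Synm at 10.08% and 5.58%. The identity gene Lgr6 also lies below it, at 24.04% and 13.01%.

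Of 19 basement membrane and hemidesmosome genes 1 was called, Col17a1, the collagen of hemidesmosomes, and the list median was -0.05. Col17a1 measured 770 and 956 CPM in BC, 1196 and 816 in TBC, 16.01 and 12.7 in LC and 222 and 85.8 in TLC (3.20 ± 0.59, adjusted p = 0.049). Hspg2, Nid1, Lama1 and Col7a1 were called higher in the luminal arm only, without a called difference of differences.

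Desmosomes join keratin filaments between cells, and stratified epithelia use a set of subunits that simple epithelia mostly lack. Of 15 tested desmosome and cornified envelope genes 4 were called higher and 0 lower: Dsc3 and Dsg3, desmosomal cadherins of stratified epithelia, the plakophilin Pkp1 and the keratin Krt16. The list median was 0.41, the lowest value was -0.87, and 11 members were not called. Among these were Jup, Dsp, Dsg2, Dsc2 and Pkp2, the subunits common to simple epithelia, with values from -0.53 to 1.04. Pkp3, Perp, Ppl, Evpl, Sfn and Krt6a were not called either. Dsc3 had 13.1 and 14.7 CPM in BC, 17.3 and 32.5 in TBC, 0.32 and 0.14 in LC and 33.9 and 22.5 in TLC. TLC and TBC overlapped while LC was near the floor, giving 6.08 ± 0.66 (adjusted p = 0.0072). Dsg3 had 3.53 and 1.95 in BC, 15.3 and 6.49 in TBC, 0.87 and 0.21 in LC and 51.8 and 50.3 in TLC. Both arms were positive, 6.66 in the luminal and 2.03 in the basal arm, the latter not called (adjusted p = 0.40). The value was 4.63 ± 0.83 (adjusted p = 0.046). Pkp1 measured 249 and 314 in BC, 260 and 232 in TBC, 72.3 and 89.6 in LC and 390 and 492 in TLC, so that both TLC libraries were above all others (2.64 ± 0.35, adjusted p = 0.014). Krt16 measured 35.1 and 33.0 CPM in BC, 25.4 and 16.04 in TBC, 6.81 and 6.65 in LC and 35.7 and 22.9 in TLC (2.84 ± 0.44, adjusted p = 0.022). All 4 calls were lost without TLC replicate 1, at adjusted p 0.052 for Dsc3.

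The Wnt pathway list had 3 of 24 tested members called higher and 0 lower, with a median of 0.55. Lgr5, a receptor of R-spondins that marks stem cells in several epithelia, measured 423 and 589 CPM in BC, 382 and 258 in TBC, 7.68 and 3.50 in LC and 118 and 62.1 in TLC. TLC lay between LC and the basal libraries without overlap, and the value was 4.70 ± 0.61 (adjusted p = 0.016). The secreted antagonist Sfrp1 measured 227 and 150 in BC, 158 and 102 in TBC, 6.38 and 5.58 in LC and 91.7 and 35.2 in TLC (3.94 ± 0.63, adjusted p = 0.039). Dkk3, a secreted glycoprotein of the Dickkopf family, measured 285 and 213 in BC, 187 and 149 in TBC, 4.76 and 7.08 in LC and 28.9 and 19.9 in TLC (2.58 ± 0.40, adjusted p = 0.022). Axin2 and Lgr4, a feedback target and another R-spondin receptor, were not called, at 0.286 and 1.0002. Calls of Sfrp1 held without 1 library only when TLC replicate 2 was left out, with adjusted p up to 0.126.

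Among 18 tested embryonic mammary bud and fate factors 1 was called. Pthlh, which encodes the parathyroid hormone-related protein that the embryonic mammary bud secretes, had 13.7 and 19.6 CPM in BC, 32.5 and 38.6 in TBC, 0.43 and 0.21 in LC and 19.9 and 22.5 in TLC. Both arms were positive, 6.06 in the luminal and 1.08 in the basal arm, the latter not called (adjusted p = 0.41). The value was 4.98 ± 0.52 (adjusted p = 0.0067). In the TGF-beta and BMP list 1 of 23 was called, the ligand Bmp7, with 80.6 and 93.6 in BC, 129 and 186 in TBC, 5.19 and 4.50 in LC and 50.9 and 33.2 in TLC (2.26 ± 0.39, adjusted p = 0.039). Of 14 tested epithelial-mesenchymal transition genes 0 were called, with a median of 1.51. The Notch, EGF receptor, YAP and TAZ, p53 and immediate-early lists also had 0 calls, with medians from -0.01 to 0.08.

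The smallest adjusted p of all genes was that of Slpi, which encodes a secreted protease inhibitor and falls outside the naming rule. It and the other 3 genes of this paragraph were chosen after their values were seen. It measured 247 and 177 CPM in BC, 152 and 105 in TBC, 7.79 and 6.65 in LC and 129 and 110 in TLC, so that TLC overlapped TBC while LC was far below every other library. The value was 4.78 ± 0.38 (adjusted p = 0.0014). Mir7678, which lies inside Slpi, had 4.69 with the same adjusted p, and their reads cannot be told apart. Slpi, Mir7678, Arhgef28 (3.35) and Osr1 (3.54) were the 4 genes called under all 17 alternative fits.

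By the position of TLC, the 88 higher genes fell into 2 kinds. In 74 the TLC libraries lay within the range of the other 6, and in 14 both lay above all of them, a sorting chosen after the data were seen. Among the 19146 genes not called, 1164 had both TLC libraries above all others. A high TLC favours a higher call, so the contrast of these counts is in part built in. Sez6 (chr11:77930800-77979048), a membrane protein gene known from neurons, was the most extreme, with 25.2 and 17.5 CPM in TLC and at most 0.78 in any other library. The counts summed to 337 in TLC, 3 in LC, 3 in TBC and 6 in BC, so TLC stood 156-fold above LC (95% interval 52.96 to 761, counting error only) and 135-fold above TBC (45.7 to 657). The fitted value of 8.47 ± 1.31 (adjusted p = 0.022) depends on the prior count. Col10a1, the collagen of hypertrophic cartilage, had 29.7 and 11.6 in TLC and at most 1.57 elsewhere (5.15 ± 0.90, adjusted p = 0.039). Stat4, a transcription factor of cytokine signalling, had 12.4 and 16.4 in TLC and at most 2.35 elsewhere (5.12 ± 0.96, adjusted p = 0.049). The others included Dsg3, Calml3, Slc26a7, Atp2a3, Slc4a4, Pkp1, Prickle1, Ptpn13, Fmo2 and Idh1.

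Other high values were those of Colca2 (5.64), Tox (5.27), Egfl6 (5.12), Cd109 (5.03) and Ppic (4.97). In all 5 the LC libraries were under 1 CPM and TLC lay at 2.80 to 60.2. Cd109, which encodes a membrane protein that binds TGF-beta, had 0.87 and 0.86 in LC, 60.2 and 28.8 in TLC, 24.7 and 10.2 in BC and 35.6 and 18.0 in TBC (adjusted p = 0.038). Colca2, Tox, Col10a1, Stat4, Lgr5, Krt5, Pkp1, Trpc6 and Pfkfb3 overlap another tested gene on the genome, as do 38 of the 88 higher, 12 of the 35 lower and 9671 of all 19269 tested genes, and the strand setting of the counting is not given. Krt14, Krt16 and Krt17 are close paralogs, and reads without a unique alignment were not counted for any gene.

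In terms of the gap between luminal and basal cells, 43 of the 88 genes were lower in luminal cells in both the control and the Tomato pair. In 32 the gap was called in the control pair but not in the Tomato pair, in 8 it was called in both with opposite signs, and 5 were called higher in TLC than in TBC without a called control gap. Of the 35 lower genes, 13 were higher in luminal cells in both pairs, 17 in the control pair only, 2 changed sign and 3 had a called gap only in the Tomato pair. Among the 19146 genes not called in the difference of differences, 1217 were lower and 791 higher in luminal cells in both pairs. A further 1128 were lower and 1350 higher in the control pair only, so a gap called in 1 pair alone was common without a called difference, and 2 had called gaps of opposite sign.

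Hormone-sensing luminal genes had negative values throughout: 14 of 14 tested, with a median of -2.06, of which 3 were called lower (Areg, Wnt4 and Esr1) and 0 higher. In the luminal arm 7 were called lower, and in the basal arm the median was 0.05. The median gap between luminal and basal cells was 3.96 in the control pair and 1.61 in the Tomato pair. Esr1, the oestrogen receptor alpha gene, measured 399 and 509 CPM in LC, 89.9 and 112 in TLC, 41.6 and 56.8 in BC and 38.2 and 40.3 in TBC, a value of -1.84 ± 0.34 (adjusted p = 0.046). Areg, the amphiregulin gene, an oestrogen-induced ligand, measured 452 and 376 in LC, 109 and 83.4 in TLC, 18.0 and 18.4 in BC and 31.2 and 19.5 in TBC (-2.57 ± 0.38, adjusted p = 0.020). Wnt4, a ligand downstream of progesterone, measured 161 and 213 in LC, 30.3 and 44.1 in TLC, 12.9 and 11.3 in BC and 16.1 and 9.70 in TBC (-2.40 ± 0.42, adjusted p = 0.042). In all 3 genes TLC lay below LC and above every basal library.

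Pgr, the progesterone receptor gene, had 476 and 741 in LC, 109 and 166 in TLC, 55.1 and 78.4 in BC and 83.9 and 66.1 in TBC, and missed the threshold (-2.30 ± 0.44, adjusted p = 0.051). Prlr, the prolactin receptor gene, had 4237 and 4663 in LC and 716 and 780 in TLC against 129 to 242 in the basal libraries (-2.27, adjusted p = 0.068). Foxa1, a pioneer factor of hormone-sensing cells, had 457 and 557 in LC, 255 and 353 in TLC and 19.8 to 32.7 in the basal libraries (-0.56 ± 0.40, adjusted p = 0.72), and Cited1 -0.71. The 3 calls were lost without TLC replicate 1 and, for Esr1 and Wnt4, held only without LC replicate 1 (adjusted p up to 0.166).

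**Figure D4:**
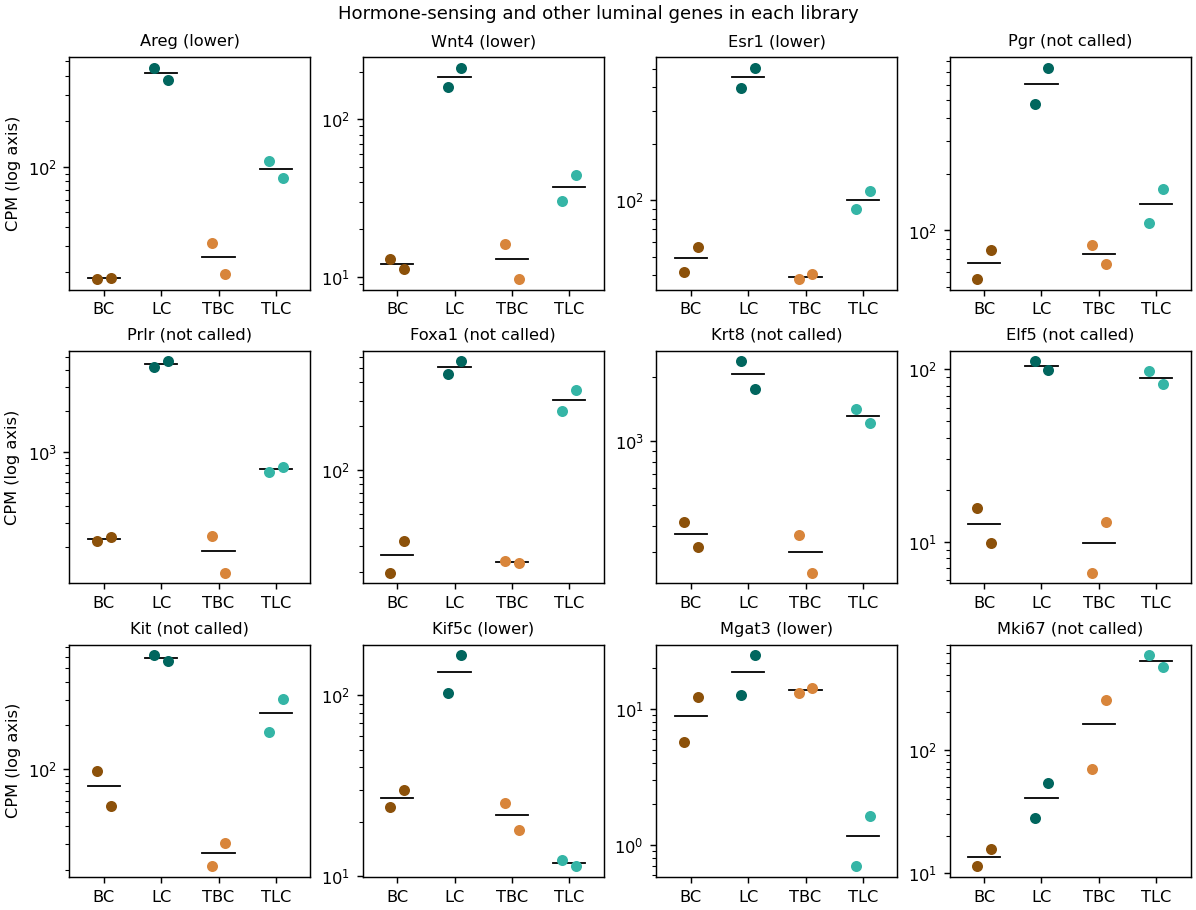
CPM on a log axis in each of the 8 libraries for 12 genes, with a horizontal line at the mean of each population. Areg, Wnt4, Esr1, Pgr and Prlr are lower in TLC than in LC while the basal libraries differ little. Kif5c and Mgat3 are lowest in TLC, and Mki67 is higher in both Tomato populations.

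Pan-luminal genes did not pass the test in the difference of differences (0 of 20, median -0.34). Krt8, a keratin of simple epithelia, measured 2381 and 1762 CPM in LC, 1414 and 1225 in TLC, 417 and 315 in BC and 361 and 240 in TBC (-0.36 ± 0.44, adjusted p = 0.87). The values of Krt18, Krt19, Epcam and Cldn7 were -0.27, -0.64, -0.12 and 0.41, none of them called. Luminal progenitor and alveolar genes had 0 of 16 called and a median of -0.35. In the luminal arm 5 of them were called lower and 0 higher, with a median of -0.81, beside -0.36 in the basal arm. Their median gap between luminal and basal cells was 1.78 in the control pair and 0.68 in the Tomato pair. Elf5, the transcription factor of alveolar progenitors, had 111 and 98.5 in LC, 97.1 and 81.7 in TLC and 6.62 to 15.7 in the basal libraries (0.09 ± 0.46, adjusted p = 0.97). Kit, a receptor of luminal progenitors, was called lower in the luminal arm (-1.27) and had -1.54 in the basal arm, not called, which left 0.27 ± 0.48 (adjusted p = 0.92). Of 10 tested milk protein and milk fat genes and 15 tight junction and polarity genes 0 were called. The milk genes had 9 negative values and a median of -0.97, and the tight junction genes 4 and 0.14.

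The remaining genes with the lowest values were mostly highest in LC. Kif5c, whose promoter is printed above, had 104 and 167 CPM in LC, 12.2 and 11.4 in TLC, 24.1 and 29.9 in BC and 25.5 and 18.2 in TBC. Both TLC libraries were below all others, and the value was -3.20 ± 0.41 (adjusted p = 0.013). Mgat3, a glycosyltransferase that adds bisecting N-acetylglucosamine, had 12.5 and 24.8 in LC, 0.70 and 1.64 in TLC, 5.68 and 12.2 in BC and 13.1 and 14.3 in TBC (-4.48 ± 0.72, adjusted p = 0.025). Muc16, a membrane mucin, had 365 and 279 in LC, 8.40 and 17.7 in TLC, 18.2 and 13.9 in BC and 6.31 and 5.32 in TBC (-3.13 ± 0.48, adjusted p = 0.022). Piezo2, a mechanosensitive ion channel, had 242 and 434 in LC, 25.4 and 28.5 in TLC, 15.9 and 17.7 in BC and 12.6 and 8.09 in TBC (-2.92 ± 0.45, adjusted p = 0.022).

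The cation channel gene Trpc6 (-3.40) and the angiotensin receptor gene Agtr1a (-3.08) were also lower in TLC than in LC. Trpc6 measured 107 and 118 CPM in LC and 4.72 and 8.91 in TLC. It had 7.06 and 5.33 in BC and 5.203 and 3.06 in TBC, so TLC overlapped the basal libraries. Agtr1a measured 202 and 124 in LC and 17.0 and 25.4 in TLC. It had 9.41 and 7.79 in BC and 6.46 and 12.03 in TBC, all below both TLC libraries. Values were -3.61 for the sulfotransferase gene Chst1, -3.30 for Tmem158, -3.07 for the protease gene Ctse, -2.89 for the magnesium transporter gene Slc41a2, -2.82 for the aspartate aminotransferase gene Got1 and -2.80 for Plcl2. In 10 of the 35 lower genes, among them Mgat3, Chst1, Kif5c and Slc41a2, both TLC libraries were below all others. This was so in 1205 of the 19146 genes not called. A low TLC favours a lower call, so the contrast of these counts is in part built in. In the hypoxia and glycolysis list 1 of 16 was called lower, Pfkfb3, which makes an activator of glycolysis, with 494 and 753 in LC, 95.9 and 102 in TLC, 76.0 and 79.5 in BC and 61.2 and 48.4 in TBC (-2.15 ± 0.36, adjusted p = 0.033).

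Mitosis genes stood higher in both Tomato populations and had 0 of 20 called in the difference of differences. Their median was 3.17 in the luminal arm, where 16 were called higher, 3.42 in the basal arm, where 0 were called, and -0.35 for the difference. Mki67, a marker of cycling cells, measured 11.4 and 15.7 CPM in BC, 69.8 and 250 in TBC, 28.2 and 53.2 in LC and 580 and 465 in TLC. The TBC libraries differed by over 3-fold, and the value was 0.13 ± 0.78 (adjusted p = 0.98), an SE that leaves room for a difference in either direction. Top2a, which untangles DNA in dividing cells, had 5.68 and 8.04 in BC, 28.5 and 163 in TBC, 17.2 and 34.5 in LC and 289 and 186 in TLC (-0.59 ± 1.04, adjusted p = 0.92). Within the sets of sheet numbers the values had opposite signs, 1.75 and -0.85 for Mki67 and 1.77 and -1.88 for Top2a. A value near 0 is therefore no evidence of an equal response in the 2 lineages. DNA replication genes had 0 of 21 called and a median of 0.38, with 9 called higher and 1 lower in the luminal arm. Their median was 1.78 in the luminal arm and 1.27 in the basal arm, where 0 were called. Their mean log2 CPM was 3.83 in TBC replicate 1 and 5.31 in TBC replicate 2, beside 3.57 and 3.19 in BC.

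Interferon-stimulated genes had 23 of 24 negative values, a median of -0.66 and 0 calls in the difference or either arm. Their mean log2 CPM was 4.27 in TBC replicate 1 and 2.83 in TBC replicate 2, beside 2.81 to 3.02 in BC, 3.77 to 3.99 in LC and 3.38 to 4.22 in TLC. The part of TBC replicate 1 in the negative values was not tested. MHC and antigen presentation genes had 12 of 16 negative values and a median of -0.97, with 6 called lower in the luminal arm and 0 in the difference. B2m, H2-K1 and H2-D1, of MHC class I, had -1.64, -1.45 and -1.12. TNF and NF-kappaB genes had 0 of 23 called, and Tnf itself -0.18 ± 0.62 (adjusted p = 0.96). The unfolded protein response, heat-shock and lipid synthesis lists had 0 calls, with medians of -0.55, 0.39 and -0.29.

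**Figure D5:**
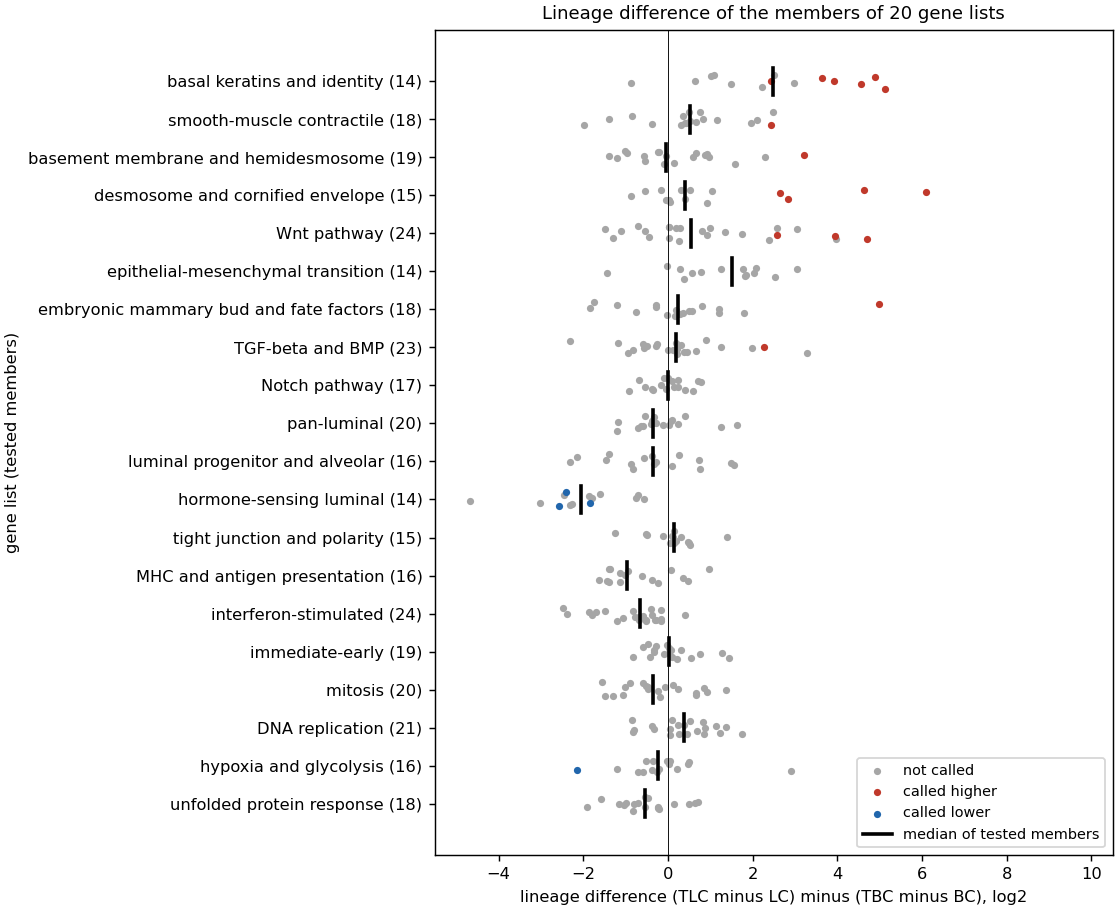
Difference of differences (x axis, log2) of every tested member of 20 gene lists, with the number tested in brackets, called genes in colour and a bar at each median. The basal keratin and identity list is shifted to the right, with a median of 2.47 and 6 called genes, and the hormone-sensing list to the left, with a median of -2.06 and 3 called genes.

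Markers of other cell types had 0 calls in the difference of differences. The summed level of 15 endothelial markers was 161 to 562 CPM in BC, 93.1 to 320 in LC, 262 to 266 in TBC and 134 to 148 in TLC, with a median difference of -0.09. That of 11 tested fibroblast markers was 1528 to 1907 in BC, 304 to 366 in LC, 2077 to 3172 in TBC and 234 to 411 in TLC, with a median of 0.81. Among these Col1a1, Col1a2 and Fbln1 were called higher and Dcn lower in the luminal arm, and Col1a1 differed between the TLC libraries (30.3 and 132). The 10 tested immune markers summed to 26.4 to 65.3 in all 8 libraries, and Cd3g, Cd8a and Nkg7 were among those with too few counts to be tested. Their part in the results was not tested.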

How the data were processed

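The authors deposited HTSeq read counts per Ensembl gene for each library, made from total RNA of FACS-sorted cells with the Ovation Solo RNA-Seq System, per the labels' protocols. STAR, HTSeq and the build GRCm38 (mm10) come from the submitters' processing notes. Tool versions, the annotation release and the strand option were not given in the sources used here. The 5 summary entries per file were removed (reads without a feature were 17.4% to 30.8%). Of 49671 gene identifiers 49412 matched GENCODE M21, which gave symbols and positions.

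The 8 libraries were fitted with edgeR 4.0.16 in R 4.3.3 (TMM scaling, filterByExpr by population, robust quasi-likelihood test, 1 coefficient per population, 4 residual degrees of freedom), which tested 19269 genes. CPM uses TMM library sizes and is not per gene length, so levels are compared within a gene. SE is the log2 difference divided by the square root of F. Alternatives used limma 3.58.1, DESeq2 1.42.0, other scalings and filters, all 10 libraries, a library set term and each library left out. The code was tested on simulated data.

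Named were, by rule, the 12 highest and 12 lowest called genes of at least 10 CPM in a population whose sign held over all libraries, up to 4 called members per list, and 18 anchor genes, with predicted genes skipped and 1 gene not reported here. Other genes given with values (Bcl11b, Prlr, Cited1, Axin2, Lgr4, Lgr6 and the like) were chosen after their values were seen. The 35 lists, 27 of lineages and pathways and 8 of other cell types, were written from textbook knowledge. Members and lists were chosen with earlier results of these data known.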

Additional observations from a re-analysis of the deposited data

Results flagged for a closer look

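The responses of the luminal and the basal arm differed for every called gene that the text names by rule, 24 higher and 16 lower. These genes were called by the test of the difference itself, so the list is not separate evidence. The higher log2 differences of differences were Sez6 8.47, Dsc3 6.08, Colca2 5.64, Tox 5.27, Col10a1 5.15, Krt14 5.13, Egfl6 5.12, Stat4 5.12, Cd109 5.03, Pthlh 4.98, Ppic 4.97, Lgr5 4.70, Dsg3 4.63, Cdh3 4.56, Sfrp1 3.94, Krt5 3.93, Krt17 3.65, Col17a1 3.20, Krt16 2.84, Pkp1 2.64, Dkk3 2.58, Tpm2 2.43, Trp63 2.43 and Bmp7 2.26. The lower ones were Mgat3 -4.48, Chst1 -3.61, Trpc6 -3.40, Tmem158 -3.30, Kif5c -3.20, Muc16 -3.13, Agtr1a -3.08, Ctse -3.07, Piezo2 -2.92, Slc41a2 -2.89, Got1 -2.82, Plcl2 -2.80, Areg -2.57, Wnt4 -2.40, Pfkfb3 -2.15 and Esr1 -1.84. Each population has 2 libraries, too few to look for single outlying samples.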

How the results depend on the processing

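The 88 higher and 35 lower calls became 297 and 187 with DESeq2, 49 and 20 with limma-voom, 433 and 323 without a filter on low counts, and 179 and 113 with a library set term. The lower calls were 23 with upper-quartile factors, 23 with the stricter filter of 5 CPM in 2 libraries and 71 with all 10 libraries. Leaving out 1 library gave 4 to 202 higher and 0 to 99 lower calls, the fewest without TLC replicate 1 and the most without LC replicate 1, and the lone library of a population is then assumed to vary like the others. The 1512 calls of the luminal arm became 2644 without a filter and 320 to 1513 with 1 library left out. The 0 calls of the basal arm became 201 with DESeq2, 420 without a filter and 0 to 136 with 1 library left out, 136 of them without TBC replicate 1. Counts thinned to the shallowest library (5381351, added after seeing the data) gave 80 and 25. Of the 123 called genes, 65 (48 higher, 17 lower) were called under all 8 other tools, scalings, filters and terms, 4 under every left-out library, and the sign held in every setting that tested them. Those fits share the libraries from which the genes were called, so the agreement of sign is not separate evidence. Log2 counts without scaling moved the median by -0.79. The labels give no shared replicate numbers, and the 2 sets of sheet numbers in the titles served as a block only in the fit with the library set term. Set differences of 2 populations correlated across genes at -0.01 (BC with TLC) to 0.41 (BC with LC). Not every pair of populations was above 0.1, so the sets were not taken as pairs in the reported values. Any set difference shared between populations therefore stays within the reported SEs and p-values. The cause of these shifts was not tested.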
